A study of Mus musculus with 24 samples.

Results

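The smooth muscle contractile genes are a set of 31 genes that build, anchor or switch on the contractile apparatus of smooth muscle cells. They were chosen by name, as the rows of the deposited gene tables whose identifiers map to the 31 symbols, and all 31 were found among the 55487 genes listed. No measured value entered that rule, but the 31 genes were chosen with earlier results of these data known. Their levels are described in mouse colon and in colorectal tumours. All 31 passed the filter on low counts in each of the fits.

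The study sequenced messenger RNA of C57BL/6 mice in 8 groups of 3 libraries, 24 in all, described as biological replicates. KO mice lack Axin1, which encodes a scaffold protein that keeps beta-catenin low, in the epithelial cells of the intestine, and WT mice are wild type. Each genotype gave colon from mice on water (untreated), colon at day 7 and at day 13 of treatment with dextran sulfate sodium (DSS), which injures the colonic epithelium, and tumours from mice given the carcinogen azoxymethane (AOM) and DSS. The sources used here do not give the driver of the deletion, the deleted part of the gene, or the age and sex of the mice, and muscle is not among the cells the deletion was aimed at.

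Smooth muscle shortens when thick filaments of smooth muscle myosin pull on thin filaments of actin. Calcium entry activates a kinase that phosphorylates the myosin light chain, while proteins on the thin filament tune the response, and dense bodies and adhesion plaques pass the force to the cell membrane. In the gut wall this muscle forms the muscularis externa and the thin muscularis mucosae, and serum response factor with its partner myocardin drives many of its genes through a DNA element called the CArG box.

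Total expected counts lay between 15.65 M and 28.07 M per library (median 23.6 M), and 22675 to 24581 genes had a count in a library. Levels are given as CPM, the counts of a gene divided by the scaled library total, so each value is relative to the other RNA of its library. Axin1 read 13.8 to 19.3 CPM in the KO libraries and 46.2 to 58.6 CPM in the WT libraries, over the whole gene. The female-specific Xist read 605 to 1140.1 CPM in the 3 KO libraries at day 13 and 0.236 to 0.805 CPM in the 3 WT libraries, and the Y-linked Ddx3y 0 to 0.0496 CPM and 30.9 to 39 CPM, so at day 13 genotype and sex cannot be told apart. Reads that fit several genes were shared out: the counts of Tagln, Smtn, Mylk and Vcl were not whole in all 24 libraries. Those of Acta2 and Actg2, which belong to a family of near-identical actins, were whole in every library, although reads that fit several actins could still be missed or misplaced. No source used here says whether counting used the strand, so overlapping genes cannot be told apart.

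The share of all counts held by the 31 genes ran from 0.199% to 2.497%, and 5 libraries stood apart in these genes, in a skeletal muscle gene or in keratins of squamous epithelium. WT day 7 replicate 2, the shallowest library, was the highest of the 18 colon libraries in 28 of the 31 genes. KO day 13 replicate 1 was highest of its group in 30 of 31 and held 27.2 CPM of Myh4, a skeletal muscle myosin, and 416 CPM of Krt14, a keratin of squamous epithelium. WT day 13 replicate 3 was highest of its group in 26 of 31 and held 1074 CPM of Krt14. KO tumour replicate 2 held 202 CPM of Krt5, a second squamous keratin, against 0 CPM in the other KO tumours. KO untreated replicate 3 was set apart by 44.7 CPM of Ldb3 and 256 CPM of Fhl1, against 11.7 CPM of Ldb3 and 751 and 839 CPM of Fhl1 in the other untreated KO libraries.

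**Figure D1:**
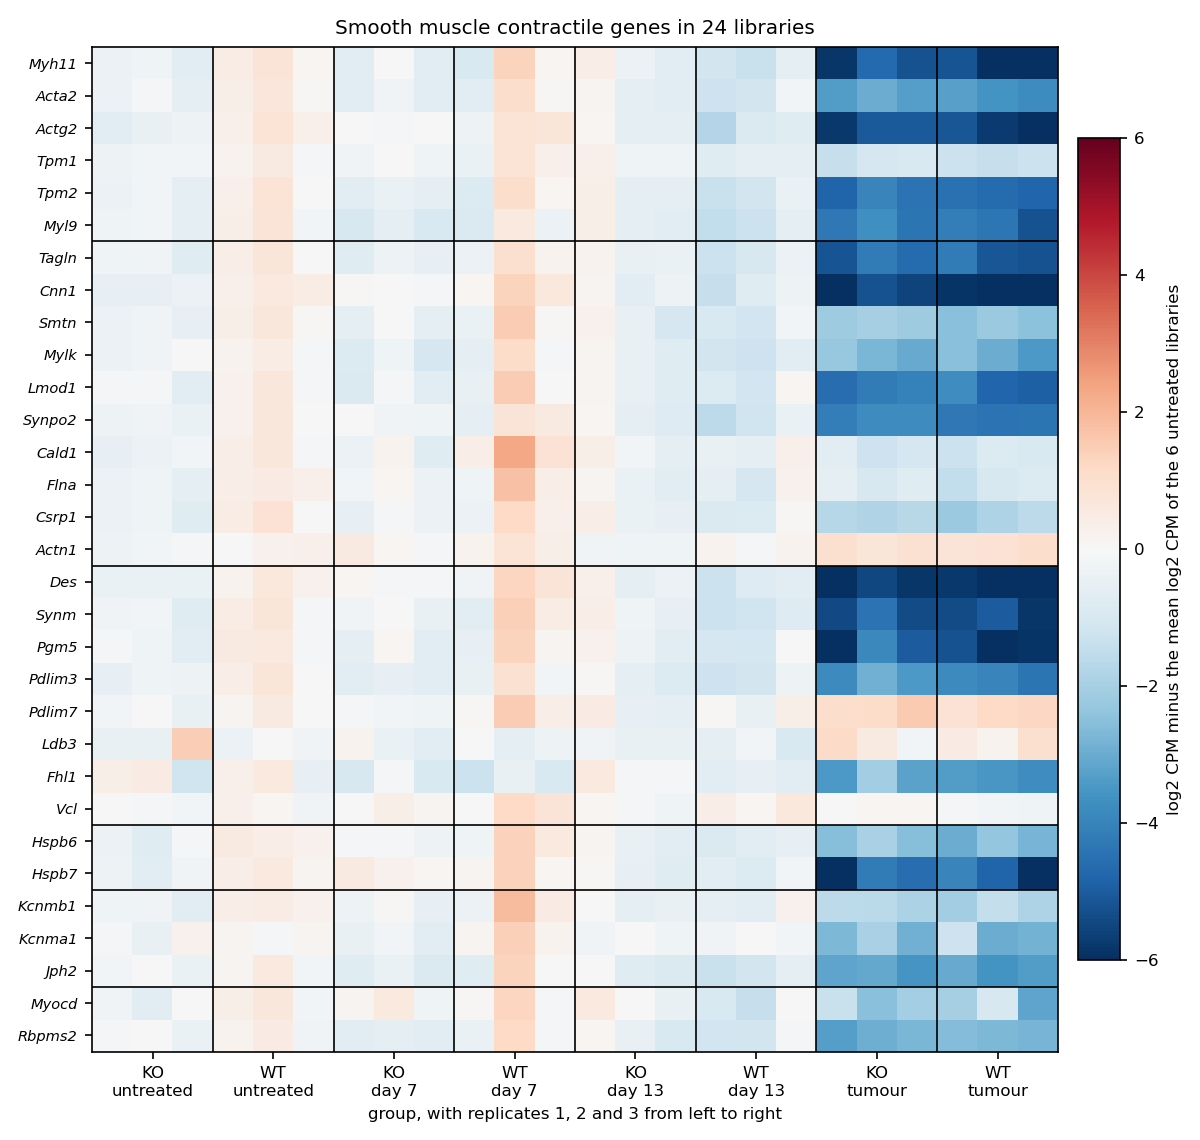
Each cell gives the log2 CPM of a gene in a library minus its mean over the 6 untreated libraries, with genes in the order of their roles and libraries by group; colours stop at -6 and 6. The 6 tumour libraries on the right are blue for most genes, whereas Actn1 and Pdlim7 are red there, and WT day 7 replicate 2 is the reddest colon library.

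TPM, in which counts are also divided by gene length, allow the genes to be ranked against each other. In untreated KO colon the highest were Tagln (733 ± 154 TPM), the calponin-like protein transgelin, Tpm1 (732 ± 37.6 TPM), a tropomyosin that lies along the thin filament, and Actg2 (613 ± 57.9 TPM), the enteric smooth muscle actin (mean ± SD, n = 3). In untreated WT colon the order began with Tagln (1405 ± 351 TPM), Actg2 (1329.5 ± 287 TPM) and Tpm1 (1076 ± 245 TPM), which did not differ beyond their spread. Myocd, which encodes myocardin, was lowest in both, at 0.95 ± 0.4 TPM in KO and 1.84 ± 0.165 TPM in WT.

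Tumours had another order. In KO tumours Tpm1 (547 ± 65.9 TPM), Flna (232 ± 40.4 TPM), the actin cross-linker filamin A, Csrp1 (165 ± 12.5 TPM), a LIM protein of actin bundles, Actn1 (153 ± 24 TPM), the cross-linker alpha-actinin 1, and Pdlim7 (126 ± 23.8 TPM), a PDZ and LIM domain adaptor, came first. In WT tumours the same 5 genes led, with Tpm1 at 428 ± 12.1 TPM and Flna at 182 ± 56.1 TPM. Actg2 was thirteenth in KO tumours with 31.4 ± 7.45 TPM and fourteenth in WT tumours with 21.9 ± 8.23 TPM.

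Promoter windows of 300 bases, from 250 before to 50 after a transcription start, were taken from RefSeq on GRCm38.p6 for 27 of the 31 genes. Myh11, Actg2, Tagln and Myocd had no window. The windows printed here are shown because they hold matches to the element that serum response factor binds. Capitals mark the CArG box, 10 letters that start with CC, end with GG and hold only A or T between, or a CArG-like box with a single G or C among the middle 6 letters. Acta2, the vascular and enteric alpha-actin, is on the minus strand at chr19:34255324-34255623 and held a CArG-like box 84 and another 34 bases before the start. Myl9, the regulatory light chain that the kinase phosphorylates, is on the plus strand at chr2:156775214-156775513 and held a CArG box 161 bases and a CArG-like box 99 bases before the start. Fhl1, a LIM protein abundant in muscle, is on the plus strand at chrX:56779433-56779732 with its box 102 bases before the start. Vcl, the adhesion protein vinculin, is on the plus strand at chr14:20929148-20929447 with its box 227 bases before the start. Ldb3, a PDZ and LIM protein of the Z-disc, is on the minus strand at chr14:34588632-34588931 with its box 35 bases before the start. A second Ldb3 window, at chr14:34588558-34588857 and not printed, holds the same box 109 bases before its own start.
Acta2: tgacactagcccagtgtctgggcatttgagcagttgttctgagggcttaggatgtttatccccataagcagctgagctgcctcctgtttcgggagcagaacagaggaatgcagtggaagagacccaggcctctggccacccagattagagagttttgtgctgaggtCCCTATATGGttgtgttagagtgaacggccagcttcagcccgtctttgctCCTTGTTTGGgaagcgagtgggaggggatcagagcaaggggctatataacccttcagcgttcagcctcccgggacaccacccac
Myl9: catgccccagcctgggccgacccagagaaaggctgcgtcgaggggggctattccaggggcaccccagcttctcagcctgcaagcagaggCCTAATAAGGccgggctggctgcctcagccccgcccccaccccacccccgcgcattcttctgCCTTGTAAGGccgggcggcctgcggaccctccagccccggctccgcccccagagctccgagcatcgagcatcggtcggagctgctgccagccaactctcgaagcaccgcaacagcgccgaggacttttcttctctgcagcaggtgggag
Fhl1: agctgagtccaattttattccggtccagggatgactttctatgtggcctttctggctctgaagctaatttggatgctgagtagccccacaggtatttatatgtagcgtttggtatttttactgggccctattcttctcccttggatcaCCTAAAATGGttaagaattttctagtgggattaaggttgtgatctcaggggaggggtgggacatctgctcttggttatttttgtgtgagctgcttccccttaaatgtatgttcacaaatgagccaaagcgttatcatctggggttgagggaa
Vcl: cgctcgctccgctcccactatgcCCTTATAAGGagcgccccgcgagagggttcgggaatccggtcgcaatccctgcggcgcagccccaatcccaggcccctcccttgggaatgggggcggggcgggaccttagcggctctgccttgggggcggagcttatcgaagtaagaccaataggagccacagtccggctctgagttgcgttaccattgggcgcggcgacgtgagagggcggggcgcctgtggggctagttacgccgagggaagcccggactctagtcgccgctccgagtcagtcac
Ldb3: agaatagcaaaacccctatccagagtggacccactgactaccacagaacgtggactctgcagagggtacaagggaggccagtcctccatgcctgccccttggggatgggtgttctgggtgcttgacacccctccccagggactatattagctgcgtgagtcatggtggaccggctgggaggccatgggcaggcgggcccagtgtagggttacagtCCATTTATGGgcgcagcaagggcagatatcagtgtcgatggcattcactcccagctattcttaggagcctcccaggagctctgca

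A CArG box stood in a window of 4 of the 27 genes (14.8%), against 488 of 27025 genes with a window (1.81%), on either strand. A CArG-like box stood in 6 of 27 (22.2%), namely Acta2, Hspb6, Jph2, Myl9, Pdlim3 and Synm, against 9.69% of all genes. A box of either kind stood in 9 of 27 (33.3%), against 11.3% of all genes, and no 2 boxes shared a base. For comparison, the letters TATAAA stood in 14.8% of the member genes with a window and in 15.7% of all genes. These are matches of letters in a window, not binding sites. Of the 4 genes with a CArG box, Myl9 and Fhl1 fell in tumours of both genotypes, and Vcl and Ldb3 did not pass the test in either.

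Tumours were compared with untreated colon of the same genotype to ask how far the contractile genes differ in tumour tissue. Most of the 31 genes fell, with Des, Cnn1, Actg2 and Myh11 the furthest in KO by log2 change. By edgeR's quasi-likelihood test with adjusted p under 0.05 over all genes, 25 of 31 fell and 2 rose in KO tumours, where 49.9% of all genes tested passed, 23.5% lower and 26.4% higher. In WT tumours 27 fell and 2 rose, where 48.8% of all genes passed, 21.2% lower and 27.6% higher. The median log2 change of the 31 genes was -2.77 in KO and -3.47 in WT tumours, beside 0.04 and 0.09 over all genes. In KO all tumour libraries lay below all untreated libraries in 26 of the 31 genes and above them in 2, against 28.8% and 30.2% of all genes. In WT they lay below in 27 and above in 3, against 29.4% and 30.5% of all genes.

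**Figure D2:**
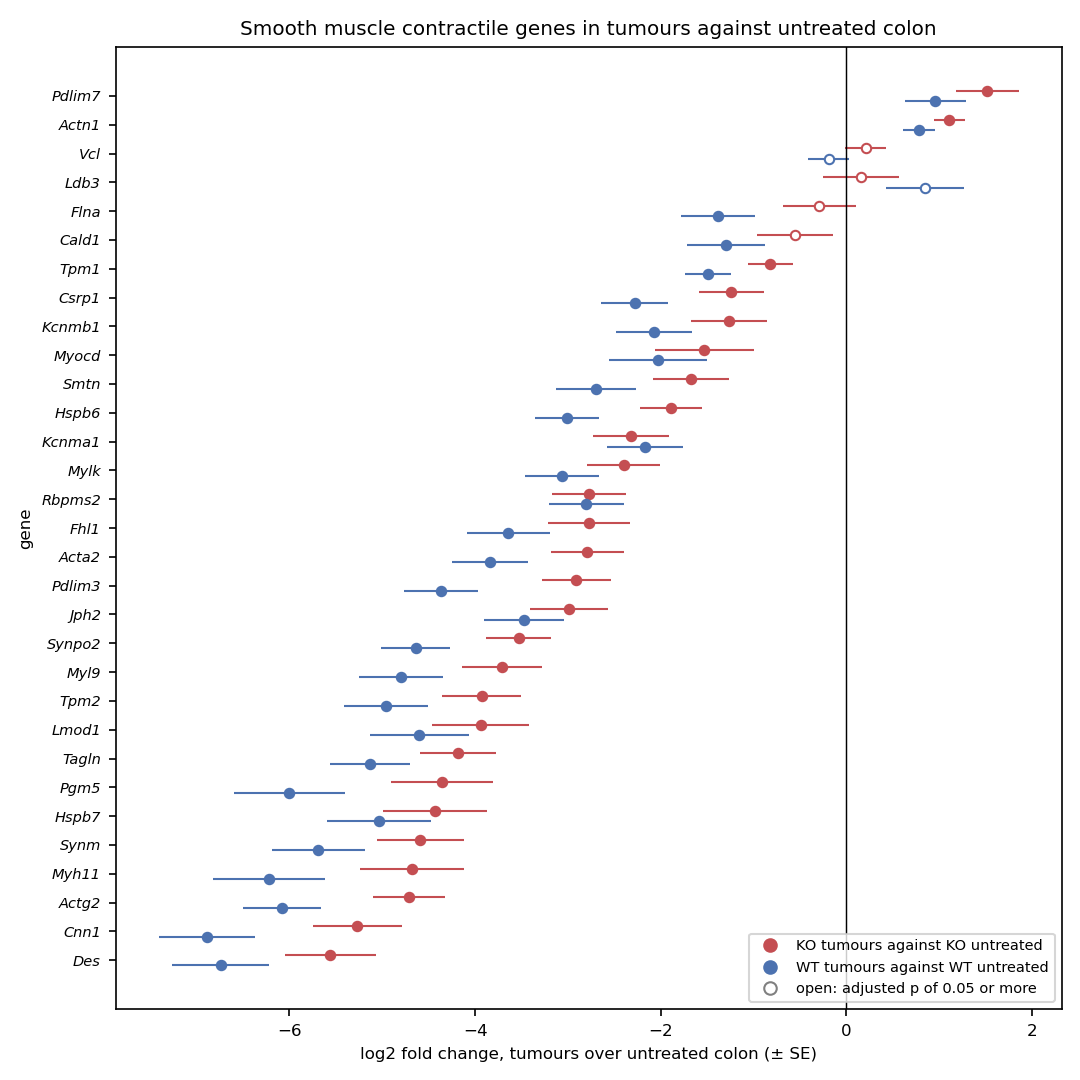
Points give the log2 fold change of each gene in tumours over untreated colon of the same genotype, KO in red above WT in blue, with bars of 1 SE, and open points did not pass adjusted p under 0.05. Changes run from 1.52 for Pdlim7 in KO tumours to -6.89 for Cnn1 in WT tumours.

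On GRCm38, Myh11 lies at chr16:14194535-14291372, Actg2 at chr6:83512905-83536265, Acta2 at chr19:34241090-34255590, Cnn1 at chr9:22099216-22109630 and Des at chr1:75360329-75368579, all protein-coding genes with values per whole gene. Among the filament proteins, Myh11, the smooth muscle myosin heavy chain, had 22.1, 49.3 and 33.3 CPM in KO tumours and 984, 1047 and 779 CPM in untreated KO colon. In WT it had 35.1, 19.7 and 11.3 CPM in tumours and 1681, 2112 and 1363 CPM in untreated colon. Every tumour library lay far below every untreated library, and the tumour mean was 3.73% of the untreated mean in KO and 1.28% in WT. The log2 change was -4.68 ± 0.56 in KO (adjusted p = 4.20e-06) and -6.22 ± 0.60 in WT (adjusted p = 5.27e-07, edgeR).

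Actg2 had 14, 24 and 23.9 CPM in KO tumours and 487, 572 and 628 CPM in untreated KO colon. WT tumours had 22.4, 14.8 and 9.64 CPM, against 976, 1388 and 964 CPM in untreated WT colon. Tumours and colon were far apart in every library, with changes of -4.71 ± 0.39 in KO (adjusted p = 2.09e-07) and -6.08 ± 0.42 in WT (adjusted p = 3.25e-08, edgeR). Acta2 fell less, to 79.1, 105 and 81.1 CPM in KO tumours against 634, 748 and 538 CPM in untreated KO colon. Its WT tumours had 86, 66.7 and 59.7 CPM, against 1035, 1299 and 847 CPM. The groups did not overlap, and the change was -2.79 ± 0.39 in KO (adjusted p = 1.87e-05) and -3.84 ± 0.41 in WT (adjusted p = 1.25e-06, edgeR).

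Tpm2, a tropomyosin, fell in both genotypes, with log2 changes of -3.93 in KO and -4.96 in WT tumours, and so did Myl9, with -3.71 and -4.80. Tpm1 also fell, yet kept 54.5% of its untreated level in KO tumours and 34.1% in WT tumours. Its tumour values of 383 to 534 CPM lay below the 810.2 to 1474 CPM of untreated colon.

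Of the proteins that regulate or bind the thin filament, Cnn1, calponin 1, had 3.08, 12.2 and 9.84 CPM in KO tumours and 329, 323 and 359.5 CPM in untreated KO colon. In WT it had 7.77, 3.95 and 3.3 CPM in tumours, against 558, 684 and 622 CPM. This was the largest drop of the 31 genes in WT, -6.89 ± 0.52 (adjusted p = 1.02e-07), and the second in KO, -5.27 ± 0.48 (adjusted p = 4.69e-07, edgeR). Tagln fell too (-4.18 in KO, -5.13 in WT), as did Synpo2, the actin-binding protein synaptopodin 2 (-3.53 in KO, -4.64 in WT). Lmod1, a leiomodin that nucleates actin filaments, had 1.51 to 3.41 CPM in the 6 tumour libraries and 28.7 to 71.5 CPM in untreated colon. Smtn, the actin-binding protein smoothelin, and Mylk, the myosin light chain kinase, kept more, with 30.1% and 18.1% of the untreated level in KO tumours and 14.7% and 11.4% in WT tumours. Csrp1 kept 40.6% in KO and 19.6% in WT.

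The intermediate filament gene Des, which encodes desmin, had 4.59, 16 and 12.2 CPM in KO tumours and 536, 533 and 535 CPM in untreated KO colon. Its WT values were 12.7, 5.41 and 6.44 CPM in tumours, against 813, 1084 and 840.5 CPM. It was down 47.1-fold in KO (adjusted p = 3.55e-07) and 107-fold in WT (adjusted p = 1.02e-07, edgeR). Synm, which encodes the filament protein synemin, fell (-4.59 in KO, -5.69 in WT). Pgm5, an adhesion protein related to phosphoglucomutase, kept 4.69% in KO and 1.5% in WT, Pdlim3, a Z-disc adaptor, 12.7% and 4.61%, and Fhl1 14% and 7.66%.

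The small heat shock genes fell as well. Hspb7 was near the limit of detection in tumours, at 0.0984, 0.832 and 0.636 CPM in KO and 0.985, 0.544 and 0.207 CPM in WT, against 9.71 to 13.1 CPM and 17 to 23 CPM in untreated KO and WT colon. Hspb6 kept 25.9% in KO and 11.8% in WT.

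Genes of excitation also fell in both genotypes. Kcnma1, the pore of the large-conductance calcium-activated potassium channel, kept 19.2% in KO and 21.2% in WT tumours, and its smooth muscle subunit Kcnmb1 kept 39.8% and 22.7%. Jph2, a junctophilin that ties the calcium store to the cell membrane, kept 12% and 8.63%. Rbpms2, an RNA-binding protein of smooth muscle, kept 14.1% and 13.7%.

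Myocd had 1.21, 0.529 and 0.748 CPM in KO tumours and 2.65, 1.96 and 2.94 CPM in untreated KO colon. In WT it had 0.758, 1.56 and 0.344 CPM in tumours, against 3.93, 4.84 and 2.69 CPM. Tumours did not overlap untreated colon in either genotype, with changes of -1.53 ± 0.53 in KO (adjusted p = 0.022) and -2.03 ± 0.53 in WT (adjusted p = 0.00386, edgeR). The KO call was lost without KO untreated replicate 3 (adjusted p = 0.0596), KO tumour replicate 2 (0.0841) or KO tumour replicate 3 (0.0672).

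The exceptions were 6 genes named after their values were seen, Actn1, Pdlim7, Vcl, Flna, Cald1 and Ldb3. Actn1 had 277, 229 and 261 CPM in KO tumours and 113, 127 and 131 CPM in untreated KO colon. WT tumours had 243, 259 and 288 CPM, against 144, 166 and 171 CPM. Every tumour library exceeded every untreated library, and Actn1 rose by 1.11 ± 0.17 in KO (adjusted p = 5.41e-05) and 0.78 ± 0.17 in WT (adjusted p = 0.00105, edgeR).

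Pdlim7 had 103, 107 and 148 CPM in KO tumours and 44.4, 48.8 and 37.4 CPM in untreated KO colon. WT tumours had 92.7, 115 and 120.2 CPM, against 55.8, 71.7 and 48.8 CPM. It rose by 1.52 ± 0.34 in KO (adjusted p = 0.00116) and 0.96 ± 0.33 in WT (adjusted p = 0.0227, edgeR). The WT call was lost without WT untreated replicate 1 (adjusted p = 0.0662) or 3 (0.0858), or WT tumour replicate 2 (0.0542) or 3 (0.0655).

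Vcl did not pass, at 0.21 ± 0.22 in KO (adjusted p = 0.461) and -0.19 ± 0.22 in WT (adjusted p = 0.494, edgeR), at 106 to 137 CPM in tumours and 108 to 153 CPM in untreated colon. Flna and Cald1, caldesmon 1 of the thin filament, passed in WT only, at -1.38 ± 0.40 (adjusted p = 0.00792) and -1.30 ± 0.42 (adjusted p = 0.0151), against -0.29 ± 0.39 (adjusted p = 0.561) and -0.55 ± 0.41 (adjusted p = 0.276) in KO. The Cald1 call in WT was lost without WT untreated replicate 2 (adjusted p = 0.0631) or WT tumour replicate 1 (0.0539). The genotype difference in the change was not past the test for either gene.

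Ldb3 did not pass in KO (0.16 ± 0.41, adjusted p = 0.771) or WT (0.85 ± 0.42, adjusted p = 0.102, edgeR). Without KO untreated replicate 3 it was higher in KO tumours by 1.14 (adjusted p = 0.00821). That library alone held 44.7 CPM against 11.7 CPM in both others. KO tumours had 35.4, 23.6 and 14.4 CPM and WT tumours 22.8, 18.4 and 31.6 CPM, against 12.7 to 15.8 CPM in untreated WT colon.

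**Figure D3:**
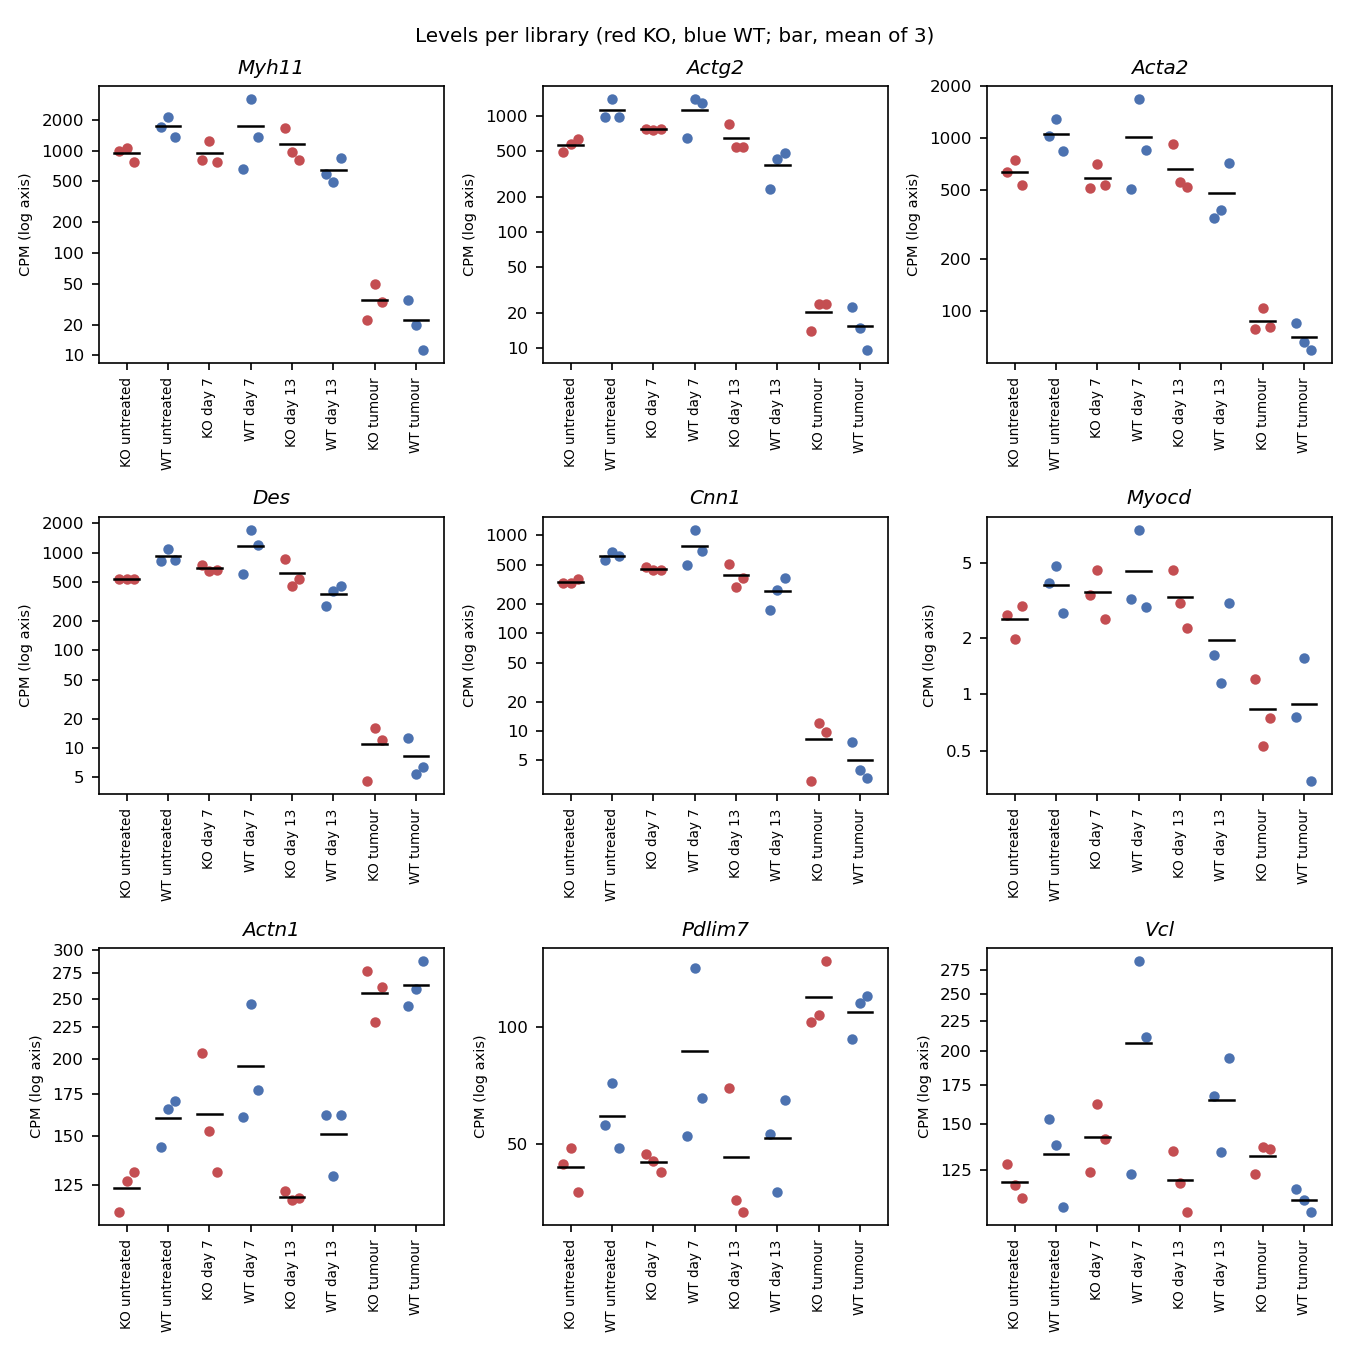
Points give the CPM of 9 genes in each library on a log axis, KO in red and WT in blue, and bars the mean of 3 libraries. The first 5 panels are lowest in tumours, with Myh11 between 11.3 and 49.3 CPM there, while Actn1 lies between 229 and 288 CPM in tumours and 113 and 245 CPM in colon.

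Other genes of smooth muscle, from lists that do not hold the 31, gave a mixed picture. Among all genes tested 23.5% fell and 26.4% rose in KO tumours, and 21.2% fell and 27.6% rose in WT tumours. Of 38 regulators and signalling genes, 22 fell and 2 rose in KO tumours, and 20 fell and 5 rose in WT tumours. Chrm2, a muscarinic receptor through which acetylcholine contracts gut muscle, fell (-5.25 in KO, -5.84 in WT). Ppp1r12b, a targeting subunit of myosin phosphatase, fell (-2.12 in KO, -3.12 in WT). Srf, which encodes serum response factor itself, had 42.1, 40 and 43.2 CPM in KO tumours and 43.2, 40.6 and 44.4 CPM in WT tumours, against 38.2 to 49.5 CPM in the 6 untreated libraries. Of 39 other structural genes, 14 fell and 6 rose in KO, and 17 fell and 6 rose in WT. Popdc2, a membrane protein of muscle, fell (-4.51 in KO, -5.21 in WT). The genes that rose included the broadly expressed relatives Cnn3 (2.57 in KO, 1.85 in WT), a calponin, and Tpm4 (1.49 and 1.39), a tropomyosin. Srf was named after its values were seen.

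Most markers of enteric neurons and glia, other cells of the gut wall, moved with these genes. Of 11 enteric neuron markers 8 fell and 1 rose in both genotypes, and their summed level was 13.1 to 46.6 CPM in KO tumours and 17.6 to 56.2 CPM in WT tumours, against 54.7 to 62.3 and 68.2 to 143 CPM in untreated KO and WT colon. The neuron marker that rose was Ret, with 4.59 to 31.8 CPM in KO and 7.26 to 40.2 CPM in WT tumours, against 4.48 to 5.64 and 5.48 to 10.2 CPM, so Ret held more than any other marker of the tumour sums. All 6 enteric glia markers fell in both genotypes, but Erbb3, which epithelium also expresses, held nearly all of their summed level. Sox10, S100b, Gfap and Foxd3 lay between 0 and 0.374 CPM in tumours and between 0.523 and 3.28 CPM in untreated colon. Fibroblast markers did not share this fall. Of 8, 4 rose and 1 fell in KO, beside 26.4% and 23.5% of all genes. In WT 2 rose and 1 fell, beside 27.6% and 21.2% of all genes. Their sums were 1496 to 1978 CPM in KO and 1354 to 2193 CPM in WT tumours, against 787 to 1013 and 1021 to 1576 CPM. Mesothelium, the outer lining, was mixed: of 5 markers, 1 rose and 2 fell in KO and 1 rose and 1 fell in WT. Its low sums were 5.67 to 25.5 CPM in KO and 3.86 to 27.6 CPM in WT tumours, against 2.15 to 6.47 and 0.8 to 5.28 CPM. Summed epithelial markers were 5799.6 to 11452 CPM in KO and 8848 to 13691 CPM in WT tumours, against 16826 to 19653 and 13592 to 17203 CPM. The part of these markers in the result was not tested. In a bulk sample fewer muscle cells and less muscle RNA per cell cannot be told apart. The labels do not give the sequencing run, and if the tumours had one of their own, tissue and run cannot be told apart either.

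Ratios of TPM between 5 pairs of members were compared with untreated colon. In tumours 4 of 5 differed, each with all 6 tumour libraries outside the untreated range of their genotype. The ratio of Acta2 to Actg2 was 3.54, 2.69 and 2.07 in KO tumours and 2.37, 2.91 and 3.78 in WT tumours, against 0.801, 0.809 and 0.537 in untreated KO and 0.659, 0.578 and 0.551 in untreated WT colon. That is 4.38-fold higher in tumours (log2 2.13). The ratio of Tpm1 to Tpm2 was 9.27 to 13.5 in KO and 10.7 to 13.8 in WT tumours, against 1.16 to 1.57 and 0.953 to 1.09 in untreated colon, 10.2-fold higher. Flna to Myh11 was 21.5-fold higher and Actn1 to Myh11 87-fold higher. These ratios draw on the same libraries and genes as the tumour changes above and are not separate results. Each of the 4 had p = 0.005 in the exact two-sided permutation test within genotype, the smallest it can give, and adjusted p = 0.0187 over 15 tests. Kcnmb1 to Kcnma1 did not pass (1.57-fold, exact permutation p = 0.175, adjusted p = 0.239), with 5 of 6 tumour libraries outside the untreated range, but passed without WT tumour replicate 1 (log2 1.03, adjusted p = 0.015). No ratio passed at day 7 or day 13.

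**Figure D4:**
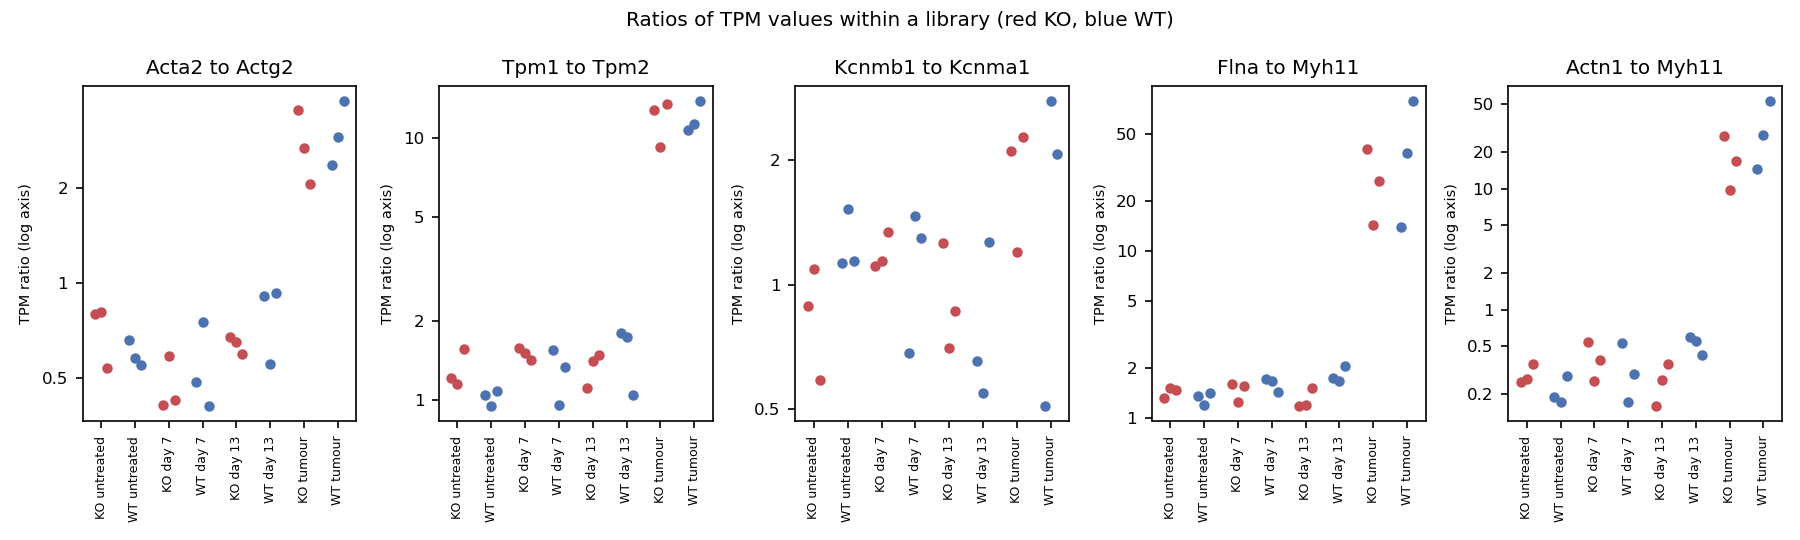
Points give the TPM ratio of 2 genes in each library on a log axis, KO in red and WT in blue. Tumour libraries lie above all colon libraries for Acta2 to Actg2, Tpm1 to Tpm2, Flna to Myh11 and Actn1 to Myh11, with Tpm1 to Tpm2 at 9.27 or more in tumours.

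Untreated KO colon was compared with untreated WT colon to ask whether muscle RNA differed before injury. No member passed edgeR's test, which 0.011% of all genes passed, and 9 were under an unadjusted p of 0.05, as were 6.53% of all genes. DESeq2 called 0 members and 0.324% of all genes. Among these libraries WT untreated replicate 3 alone read as female, with 704 CPM of Xist. Of the 31 log2 differences 30 were negative, with a median of -0.72 beside -0.01 over all genes. In 21 of 31 genes the 3 KO libraries all lay below the 3 WT libraries and in 0 above them, against 8.72% and 9.26% of all genes. The smallest adjusted p was that of Actg2, with the levels given above, at -1.01 ± 0.31 (adjusted p = 0.611). Cnn1 differed by -0.91 ± 0.30 (adjusted p = 0.624), Des by -0.80 ± 0.31 (adjusted p = 0.74), Myh11 by -0.90 ± 0.45 (adjusted p = 0.768), Acta2 by -0.75 ± 0.39 (adjusted p = 0.781) and Myocd by -0.63 ± 0.45 (adjusted p = 0.806). Ldb3 was the 1 positive value, 0.66, with 11.7, 11.7 and 44.7 CPM in KO and 12.7, 15.8 and 13.8 CPM in WT, so that KO replicate 3 alone lay above the WT libraries.

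The summed level of the 31 genes was 8638, 9345 and 7632 CPM in untreated KO colon and 13431, 16985 and 11164 CPM in untreated WT colon, so the groups did not overlap. Markers of enteric neurons, fibroblasts and glia leaned the same way. Of 11 enteric neuron markers 10 were lower in KO with a median of -0.77, of 8 fibroblast markers 7 with a median of -0.61, and of 6 glia markers 5 with a median of -0.58, none of them past the test. The 9 epithelial markers were all higher in sign, with a median of 0.15. So were the 5 mesothelium markers, with a median of 0.82 at the low sums given above. Of these markers 0 passed the test. Their part in the result was not tested.

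**Figure D5:**
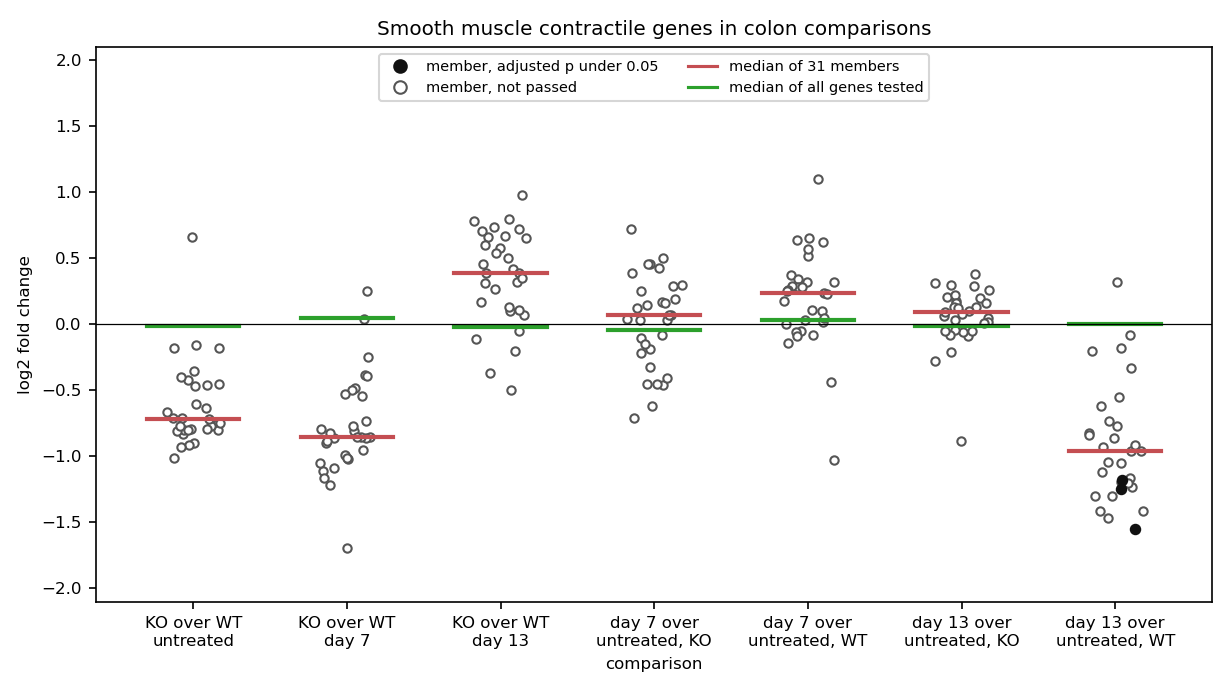
Points give the log2 fold change of each of the 31 genes in 7 colon comparisons, filled where adjusted p was under 0.05, with the median of the 31 genes in red and of all genes tested in green. The red line lies at -0.72 for KO over WT untreated, 0.39 for KO over WT at day 13 and -0.96 for day 13 over untreated in WT.

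At day 7 of DSS, when 12.6% of all genes had changed in KO colon and 16.3% in WT colon, none of the 31 genes passed in either genotype. The shares higher and lower among all genes were 8.57% and 4.07% in KO and 8.52% and 7.77% in WT. In KO 2 members were under an unadjusted p of 0.05 (26.8% of all genes) and 0 passed DESeq2 (17%), and in WT 4 were (32.7%) and 1 did (21.1%). The median change was 0.07 in KO and 0.24 in WT. Sex was partly mixed with day in both genotypes. In KO, Xist read 0.145, 749 and 576 CPM at day 7, against 0 to 0.332 CPM in untreated colon. In WT it read 694, 508 and 578 CPM at day 7, against 0.177, 0.08 and 704 CPM in untreated colon. Actg2 in KO had 768, 746 and 765 CPM at day 7, above all untreated KO libraries, as did 5 of 31 genes there, while 3 lay below, against 17.5% and 17.2% of all genes. Myh11 had 815, 1236 and 771 CPM in KO and 655, 3214 and 1346 CPM in WT at day 7, so WT ran 4.91-fold from lowest to highest. In WT at day 7 28 of 31 genes differed over 2-fold between replicates, against 0 of 31 in KO. The values closest to passing in WT were Fhl1 (-1.03 ± 0.40, adjusted p = 0.0873), Vcl (0.64 ± 0.25, adjusted p = 0.0882) and Cald1 (1.10 ± 0.45, adjusted p = 0.103, edgeR). In KO they were Actn1 (0.43 ± 0.18, adjusted p = 0.14), Hspb7 (0.72 ± 0.33, adjusted p = 0.173) and Ldb3 (-0.71 ± 0.41, adjusted p = 0.287).

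KO and WT colon at day 7 had no member past edgeR's test between them, where 0.00552% of all genes passed. There 17 members and 27% of all genes were under an unadjusted p of 0.05. Among these libraries KO day 7 replicate 1 alone read as male, so sex was not balanced between the genotypes. DESeq2 called 3 members, all lower, and 13.7% of all genes, 8.68% lower. The median difference was -0.85 beside 0.05 over all genes, 29 of 31 values were negative, and 6 genes lay lower in every KO library, against 13.8% of all genes. Kcnma1 had 11.8, 14.1 and 10 CPM in KO and 18.1, 43.2 and 18.7 CPM in WT (-1.16 ± 0.29, adjusted p = 0.0647). Cald1 had 172, 255 and 129.6 CPM in KO and 285, 1099 and 394 CPM in WT (-1.69 ± 0.45, adjusted p = 0.0658). For both genes the KO libraries lay below all WT libraries. Kcnmb1 differed by -1.22 ± 0.43 (adjusted p = 0.0967), Myh11 by -0.90 ± 0.45 (adjusted p = 0.211), Actg2 by -0.54 ± 0.30 (adjusted p = 0.264), Acta2 by -0.81 ± 0.39 (adjusted p = 0.202), Des by -0.77 ± 0.31 (adjusted p = 0.137) and Myocd by -0.39 ± 0.45 (adjusted p = 0.604, edgeR). Medians of several other lists of wall cell markers were further below 0 than that of the 31 genes. Those of mesothelium (-0.69, 5 of 5 lower in sign) and interstitial cells of Cajal, another cell of the gut wall (-0.57, 2 of 3), were not. The median difference was -1.72 for neurons (11 of 11 lower in sign), -1.57 for glia (5 of 6), -1.52 for pericytes and vascular mural cells (6 of 6), -1.25 for fibroblasts (8 of 8) and -1.12 for endothelium (6 of 6), with none past the test. Their part in the muscle values was not tested.

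WT day 7 libraries differed widely among themselves. WT day 7 replicate 2 summed to 23558 CPM over the 31 genes, against 7778 and 12909.5 CPM in the other WT libraries, and it was also highest in summed fibroblast (3175 against 1289 and 1087 CPM), enteric neuron (458 against 149.9 and 126 CPM) and endothelial markers (200.5 against 85.9 and 57.7 CPM). Without it no member passed, and Myocd turned to 0.22. Without WT day 7 replicate 1, 8 members were called lower in KO, and without WT day 7 replicate 3, 2 were. For day 7 against untreated colon, leaving out any 1 library gave 0 calls in KO, and 2 rose in WT without WT day 7 replicate 1. Shares of all genes called in these refits are not given here, so none of these counts can be set against them.

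At day 13 Actg2, Des and Cnn1 fell in WT colon. They were the 3 of 31 genes that passed the test (edgeR), where 4.24% of all genes passed, 1.03% lower and 3.21% higher. In 19 genes the WT samples had every day 13 library below every untreated library, against 13.5% of all genes. The median change was -0.96 beside 0 over all genes and 30 of 31 values were negative. Of 11 enteric neuron markers 10 were lower in sign (median -0.49) and of 6 glia markers 5 (median -0.43). In sign 5 of 8 fibroblast markers were higher (median 0.46) and 4 of 4 squamous epithelium markers (median 11.49). The squamous value rested on WT day 13 replicate 3, with a sum of 5035 CPM, against 6.98 and 5.9 CPM in replicates 1 and 2. None of these markers passed the test. Their part in the muscle values was not tested. Other lists of smooth muscle genes had medians nearer 0 than the 31 genes. Of 38 regulators and signalling genes 28 were lower in sign (median -0.43), and 0 passed. Of 39 other structural genes 25 were lower in sign (median -0.3), and 2 passed, both higher. Actg2 fell to 232, 423 and 472 CPM at day 13, against 976, 1388 and 964 CPM in untreated colon (-1.55 ± 0.31, adjusted p = 0.0175). Des had 284, 409 and 449.7 CPM, against 813, 1084 and 840.5 CPM (-1.25 ± 0.32, adjusted p = 0.0415). Cnn1 had 174, 274 and 367 CPM, against 558, 684 and 622 CPM (-1.18 ± 0.30, adjusted p = 0.0419). In all 3 genes the groups did not overlap.

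Values just beyond the threshold belonged to Tagln (-1.23, adjusted p = 0.0502) and Synpo2 (-1.30, adjusted p = 0.0503), both named after their values were seen. Myh11 had 588, 495 and 841 CPM (-1.41 ± 0.45, adjusted p = 0.0872), Acta2 345, 384 and 722 CPM (-1.12 ± 0.40, adjusted p = 0.112) and Myocd 1.61, 1.15 and 3.07 CPM (-0.96 ± 0.45, adjusted p = 0.227, edgeR). Within the group replicate 3, which held the squamous keratins, was the highest in 26 genes. Over 16 settings, the main fit included, Actg2 passed in 11, Cnn1 in 7 and Des in 6. The count of 3 depends on which libraries are used. It was 6 without WT day 13 replicate 3, 1 without WT untreated replicate 3, and 0 without WT day 13 replicate 1, WT untreated replicate 1 or WT untreated replicate 2. Without the 5 libraries that stood apart it was 24, all lower, a setting chosen after seeing the data. The shares of all genes called in these refits are not given here, so these counts cannot be set against them. DESeq2 called 13, all lower, where it called 10.2% of all genes, 2.87% lower. By edgeR 19 members and 22.4% of all genes were under an unadjusted p of 0.05.

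KO colon at day 13 had no member past the test against untreated KO colon by edgeR (0.0276% of all genes passed), with a median of 0.09. An unadjusted p under 0.05 was found for 1 member and 7.62% of all genes, and DESeq2 called 0 members and 0.655% of all genes. The 3 KO libraries at day 13 read as female and the 3 untreated KO libraries as male, with untreated Xist at 0 to 0.332 CPM and Ddx3y at 33.5 to 38.4 CPM, so day and sex cannot be told apart in this comparison. Ldb3 (-0.88 ± 0.41, adjusted p = 0.654), Myocd (0.38 ± 0.45, adjusted p = 0.909) and Csrp1 (0.31 ± 0.38, adjusted p = 0.915) had the smallest p. Without KO untreated replicate 3 Ldb3 was at 0.07, and Csrp1 was at -0.02 without KO day 13 replicate 1. Actg2 had 838, 533 and 540.3 CPM and Myh11 1652, 978 and 811 CPM, and no member had groups that did not overlap, against 7.77% of all genes lower and 8.18% higher.

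At day 13 26 of 31 KO minus WT differences were positive, with a median of 0.39 beside -0.02 over all genes, but none passed edgeR's test (2.51% of all genes passed, 1.86% lower). Under an unadjusted p of 0.05 were 2 members and 18.2% of all genes, and DESeq2 called 0 members and 7.43% of all genes. Synm had 266, 168 and 142 CPM in KO and 80.7, 87.1 and 117 CPM in WT (0.98 ± 0.41, adjusted p = 0.214). Actg2 differed by 0.72 ± 0.30 (adjusted p = 0.22), Des by 0.66 ± 0.31 (adjusted p = 0.282), Myh11 by 0.80 ± 0.45 (adjusted p = 0.371), Acta2 by 0.42 ± 0.39 (adjusted p = 0.623) and Myocd by 0.71 ± 0.45 (adjusted p = 0.442, edgeR). In 5 genes every KO library lay above every WT library and in 1 below, against 13.5% and 10.7% of all genes. Fibroblast markers went the other way there, with 8 of 8 lower in KO in sign and 2 past the test. Of 39 other structural genes of smooth muscle 24 were lower in sign (median -0.14), and 1 passed, lower. Of 38 regulators and signalling genes 23 were higher in sign (median 0.09), and 0 passed. The 6 skeletal muscle markers tested were all higher in sign (median 1.56), and 0 passed. Their sum was 108 CPM in KO day 13 replicate 1, against 14.6 and 11.1 CPM in the other KO libraries. The part of these lists was not tested.

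The difference between genotypes in the response was tested directly as an interaction. For day 13 no member passed edgeR (0.011% of all genes passed), and 29 of 31 values were positive with a median of 1.08 beside -0.01 over all genes. Under an unadjusted p of 0.05 were 13 members and 13.5% of all genes, and DESeq2 called 2 members and 3.11% of all genes. Sex changed with day in KO, so this difference and sex cannot be told apart either. Actg2 had the smallest p, with an interaction of 1.73 ± 0.43 (adjusted p = 0.113), followed by Cnn1 (1.40 ± 0.42, adjusted p = 0.171) and Des (1.46 ± 0.44, adjusted p = 0.175). For day 7 the median was -0.07 and 0 members passed (0% of all genes), with 1 member under an unadjusted p of 0.05 (13.7% of all genes) and 0 called by DESeq2 (1.95%). Its smallest p belonged to Kcnma1 (-0.98 ± 0.41, adjusted p = 0.319), Cald1 (-0.98 ± 0.63, adjusted p = 0.489) and Rbpms2 (-0.70 ± 0.57, adjusted p = 0.601). The untreated libraries enter all of these comparisons, and sex was partly mixed with day in the day 7 difference as well.

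Averaged over the 3 colon conditions, KO minus WT had a median of -0.36 over the 31 genes, with 29 negative and 0 past edgeR's test (4.84% of all genes passed, 3.88% lower). The average includes day 13, where genotype and sex cannot be told apart. Under an unadjusted p of 0.05 were 10 members and 25.5% of all genes, and DESeq2 called 3 members, all lower, and 13.9% of all genes, 9.14% lower. Markers of several other cells were lower too. Of 8 fibroblast markers 7 passed (median -1.04) and of 11 neuron markers 3 (median -0.84). Of 6 pericyte and mural markers 2 passed (median -0.93) and of 6 endothelial markers 1 (median -0.72), and all of these lists' values were negative. In sign 5 of 6 glia markers were lower (median -0.75), and 0 passed. Of 3 markers of interstitial cells of Cajal 2 were lower (median -0.17), and 1 passed, lower. Mesothelium had 3 of 5 markers higher (median 0.24), and 0 passed. Their part in the muscle values was not tested. Actn1 differed by -0.34 ± 0.10 (adjusted p = 0.0656), Cald1 by -0.76 ± 0.26 (adjusted p = 0.0859) and Vcl by -0.40 ± 0.14 (adjusted p = 0.0976, edgeR). The count was 5 without WT day 7 replicate 1, 3 without WT day 7 replicate 3 and 1 without WT day 13 replicate 2. For these refits the shares of all genes called are not given here.

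Between KO and WT tumours no member passed edgeR's test (0% of all genes passed). An unadjusted p under 0.05 was found for 4 members and 3.79% of all genes, and DESeq2 called 0 members and 0.077% of all genes. The median was 0.27 beside -0.01 over all genes, and in 4 genes every KO tumour lay above every WT tumour, against 4.75% of all genes. The smallest p belonged to Synpo2, with 9.05, 11.7 and 11.5 CPM in KO and 8.07, 7.38 and 7.54 CPM in WT (0.48 ± 0.16, adjusted p = 0.942), and to Vcl (0.24 ± 0.09) and Smtn (0.29 ± 0.11) at the same adjusted p. Myh11 differed by 0.65 ± 0.47 (adjusted p = 0.942), Actg2 by 0.39 ± 0.36 (adjusted p = 0.942), Acta2 by 0.31 ± 0.18 (adjusted p = 0.942), Des by 0.40 ± 0.53 (adjusted p = 0.952) and Myocd by -0.09 ± 0.61 (adjusted p = 0.99, edgeR). Myocd turned to 0.59 without WT tumour replicate 2 and to 0.15 without KO tumour replicate 2.

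The KO change minus the WT change in tumours had a median of 0.95 on the log2 scale over the 31 genes, with 29 values positive beside a median of -0.02 over all genes, but no member passed edgeR's test (0% of all genes). Under an unadjusted p of 0.05 were 8 members and 8.67% of all genes, and DESeq2 called 0 members and 0.439% of all genes. Pdlim3 had the smallest p (1.46 ± 0.50, adjusted p = 0.436), then Actg2 (1.37 ± 0.48, adjusted p = 0.436) and Cnn1 (1.62 ± 0.58, adjusted p = 0.456, edgeR). Cald1 was at 0.74 ± 0.58 (adjusted p = 0.73). These differences draw on the untreated libraries, in which the 31 genes summed to less in KO, and on tumours with sums of 2119.7, 2248 and 2238 CPM in KO and 1809.9, 1884 and 1958 CPM in WT.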

How the data were processed

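Messenger RNA of 24 libraries was sequenced. Reads were aligned with STAR 2.7.6a to GRCm38 and quantified with RSEM 1.3.1, per the submitters' processing notes. No source used here gives the annotation release or strand. The authors deposited expected counts per gene and TPM, per the file headers. Identifiers were named from GENCODE M21 (55141 of 55487), with Irag1 found as Mrvi1, and promoter windows came from RefSeq. Expected counts were rounded to whole numbers and tested with edgeR 4.0.16 (R 4.3.3; TMM scaling, quasi-likelihood F-test, minimum count 10 and total 15, Benjamini-Hochberg adjusted p under 0.05). Separate fits covered the 18 colon libraries (18102 genes), the 6 tumours (17245) and all 24 libraries for tumours against colon (19056). DESeq2 1.42.0, other filters, scalings and sample sets, and leaving out each replicate were alternatives. CPM used the same scaling. TPM ratios were tested by exact two-sided permutation within genotype. The test was also tried on simulated counts. Depth was 15.65 to 28.07 M counts, and low genes are the least precise. Groups came from the labels; replicate numbers follow accession order. Where labels do not say that libraries came from separate animals, p-values measure the spread between libraries.

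Named by rule were, per comparison, up to 10 called members with the smallest p (or the 3 with the smallest p where none passed), Myh11, Acta2, Actg2, Des and Myocd, and up to 4 genes of a list. The members and lists were chosen with earlier results of these data known. Summaries and figures used Python 3.11.15, pandas 2.3.3, numpy 2.4.6 and matplotlib 3.10.9.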

Additional observations from a re-analysis of the deposited data

How the results depend on the processing

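The tumour results were the steadiest: over all alternatives 25 to 28 members were called in KO and 28 to 30 in WT. Colon counts were small and moved more. Shares of all genes called are not given here for the alternatives, apart from the DESeq2 shares above. For day 13 in WT, 3 members were called, against 1 with no filter, 1 with a Y-linked covariate, 0 with only the groups compared, 0 without the 4 libraries whose sample numbers repeat within colon, 13 by DESeq2 and 24 without the 5 libraries that stood apart, and 0 to 6 without 1 replicate. For KO against WT at day 7 there were 0 calls, against 1 with all 24 libraries in the fit, 3 by DESeq2 and 0 to 8 without 1 replicate; for the average of conditions 1, 3 and 0 to 5. For day 7 in WT there were 1 with all 24 libraries, 1 by DESeq2, 3 without the 5 libraries and 0 to 2 without 1 replicate, and for day 7 in KO 2 without the 5 libraries. DESeq2 called 2 for the day 13 genotype difference. Leaving out 1 replicate gave log2 ratios of -0.5 to -0.28 for Acta2 to Actg2 and 0.17 to 0.35 for Tpm1 to Tpm2 at day 7, and 0.41 to 1.03 for Kcnmb1 to Kcnma1 in tumours. Flna to Myh11 at day 7 was 0.39 from CPM with a prior count of 2 and 0.11 to 0.2 without 1 replicate. The cause was not tested.

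Ranges without 1 replicate follow each sign that turned. Signs turned for Myh11 in KO against WT at day 7 (0.08 without the 4 libraries). Myocd turned in the same comparison (0.42 without the 4, 0.22 without WT day 7 replicate 2, 0.22 without the 5; -0.62 to 0.22) and between tumours (0.59 without WT tumour replicate 2, 0.15 without KO tumour replicate 2 or the 5; -0.48 to 0.59). Ldb3 in KO turned at day 7 (0.26; -1.03 to 0.26) and day 13 (0.07, and 0.0 without the 5; -1.2 to 0.07) without KO untreated replicate 3, and in tumours (-0.15 and -0.16 without KO untreated replicate 1 or 2, -0.21 without KO tumour replicate 1; -0.21 to 1.14). Csrp1 in KO at day 13 was -0.02 without KO day 13 replicate 1 and -0.16 without the 5 (-0.02 to 0.47). The set without 5 libraries was chosen after seeing the data. No paired analysis was possible because replicate numbers follow accession order and the labels pair no samples.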
